A study of Mus musculus with 2 samples.

Results

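Lysosomal genes were described in microglia of the mouse hippocampus as a set of 31 genes named by symbol, out of 32245 symbols in the count tables. The set held 10 acid hydrolases (Hexa, Gusb, Glb1, Man2b1, Naglu, Asah1, Lipa, Tpp1, Ppt1 and Lgmn), 3 luminal proteins that assist or shield them (Psap, Grn and Npc2), 9 membrane proteins (Lamp1, Lamp2, Cd63, Cd68, Npc1, Laptm4a, Laptm5, Scarb2 and Mcoln1), 8 subunits or partners of the proton pump (Atp6v0c, Atp6v0d1, Atp6v0e, Atp6v1a, Atp6v1b2, Atp6v1h, Atp6ap1 and Atp6ap2) and Tfeb, a transcription factor of lysosomal genes. Membership rested on the symbols with no cut on a measured value, but the members were chosen with earlier results of these data known. The data were droplet single-cell 3′ libraries, 1 of control mice (Ctrl) and 1 of mice whose growth before birth was impaired (fetal growth restriction, FGR). Both groups were 3 weeks old and carried the Tmem119-tdTomato+/- genotype, a red fluorescent reporter of the microglial gene Tmem119 on 1 allele, and the cells had been sorted by fluorescence for Tmem119. The sources used here do not give the number of animals behind each library or the way growth was restricted. With 1 library per group no difference had a replicate check and none was tested, so higher and lower describe these 2 libraries.

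Lysosomes are acidic organelles in which hydrolases break down proteins, lipids, glycans and nucleic acids taken up from outside the cell or delivered by autophagy. A proton pump of the vacuolar type, built from a cytosolic domain that splits ATP and a membrane domain that carries protons, keeps the lumen acidic, and heavily glycosylated membrane proteins line the inner face and move lipids and ions. Microglia clear debris, synapses and dying cells, and inherited loss of several of these genes, among them Grn, Npc1, Ppt1 and Tpp1, leads to storage disease with neurodegeneration. Many lysosomal genes carry in their promoters a palindromic element that Tfeb and its relatives Tfe3 and Mitf can bind.

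Cells were barcodes with at least 1500 unique molecular identifiers (UMIs, each standing for 1 captured molecule), at least 200 genes and at most 10% of UMIs from mitochondrially coded genes, 10687 in the Ctrl library and 8618 in the FGR library. Their medians were 4657 and 4919.5 UMIs and 2057 and 2067 genes per cell, and 31 barcodes were shared by the libraries, 0.29% and 0.36% of the cells. All 12 microglial markers were measured, with a summed level of 20187 UMIs per 1000000 UMIs of all cells (CPM) in the Ctrl library and 18743 in the FGR library. Summed over 59 markers of oligodendrocytes, astrocytes, neurons, vessels and other blood or border immune cells, the level was 632 and 773 CPM. By type, in the order Ctrl and FGR, it was 190 and 227 CPM for oligodendrocytes, 208 and 342 for astrocytes, 12.7 and 5.19 for neurons, 67.5 and 127 for vessels and 154 and 70.5 for blood and border cells. Of the blood and border markers Cd3d, Cd3e and Cd163 had 0 UMIs in the Ctrl library and 5, 2 and 4 in the FGR library. The libraries also stood apart in immediate early genes, which respond within minutes to stimulation or handling, with 29984 CPM in the Ctrl library and 41180 in the FGR library over 19 genes. The part of these differences in the results below was not tested, except where cells matched for them are given.

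The element for Tfeb and its relatives was present in the promoter windows of some of these genes and not of others. RefSeq windows of GRCm38.p6, from 250 bases before to 50 bases after the annotated start, were given for 27 of the 31 genes, the others being Asah1, Npc1, Atp6v1b2 and Atp6v1h. The core CACGTG, the longer TCACGTGA and the full element, which adds G before and C after the longer one, were searched as exact letters. Each is its own reverse complement, so both strands are covered, and each longer element holds the shorter. The full element was found in 0 of 27 windows, against 100 of all 27025 (0.37%). The 8-letter element was found in 4 of 27 (14.8%), against 1.13% of all windows and 3.03% of those of the 2802 genes with a window and at least 50 CPM. Of these 4 genes, 3 encode pump subunits (Atp6v0d1, Atp6v0e and Atp6v1a, of 6 pump genes with a window) and the fourth is Mcoln1, a calcium channel of the lysosomal membrane. The core was found in 8 of 27 (29.6%), against 8.09% of all windows and 12.9% of those of genes with at least 50 CPM. Glb1, Naglu, Lgmn and Lamp1 had the core alone. The windows of the 4 genes with the 8-letter element are shown first, then that of Lamp1, whose core repeats, and that of Cd63, which differed most between cells in the results below. Capitals mark the matches, and each window is printed along the strand of its gene.
Atp6v0d1, chr8:105566015-105566314, minus strand: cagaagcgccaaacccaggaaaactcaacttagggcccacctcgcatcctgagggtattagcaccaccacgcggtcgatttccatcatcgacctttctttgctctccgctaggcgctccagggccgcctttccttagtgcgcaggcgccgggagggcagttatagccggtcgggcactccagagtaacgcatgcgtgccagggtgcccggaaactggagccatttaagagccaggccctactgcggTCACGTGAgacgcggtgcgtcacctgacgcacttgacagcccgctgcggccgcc
Atp6v1a, chr16:44139210-44139509, minus strand: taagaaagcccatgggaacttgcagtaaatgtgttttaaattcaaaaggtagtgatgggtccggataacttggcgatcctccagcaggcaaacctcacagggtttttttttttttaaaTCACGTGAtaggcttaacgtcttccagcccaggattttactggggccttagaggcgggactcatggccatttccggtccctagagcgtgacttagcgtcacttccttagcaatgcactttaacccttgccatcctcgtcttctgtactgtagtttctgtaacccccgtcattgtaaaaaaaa
Atp6v0e, chr17:26676146-26676445, plus strand: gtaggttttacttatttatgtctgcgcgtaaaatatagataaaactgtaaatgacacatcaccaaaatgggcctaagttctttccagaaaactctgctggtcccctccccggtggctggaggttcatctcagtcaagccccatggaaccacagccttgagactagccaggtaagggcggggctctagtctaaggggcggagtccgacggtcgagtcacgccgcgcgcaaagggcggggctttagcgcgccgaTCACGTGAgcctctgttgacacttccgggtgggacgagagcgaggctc
Mcoln1, chr8:3500269-3500568, plus strand: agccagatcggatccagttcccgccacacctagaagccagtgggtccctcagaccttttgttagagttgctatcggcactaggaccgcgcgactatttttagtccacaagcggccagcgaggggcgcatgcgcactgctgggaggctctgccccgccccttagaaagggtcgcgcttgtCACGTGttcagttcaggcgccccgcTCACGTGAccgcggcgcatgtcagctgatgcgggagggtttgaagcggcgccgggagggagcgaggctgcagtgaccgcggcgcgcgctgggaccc
Lamp1, chr8:13158911-13159210, plus strand: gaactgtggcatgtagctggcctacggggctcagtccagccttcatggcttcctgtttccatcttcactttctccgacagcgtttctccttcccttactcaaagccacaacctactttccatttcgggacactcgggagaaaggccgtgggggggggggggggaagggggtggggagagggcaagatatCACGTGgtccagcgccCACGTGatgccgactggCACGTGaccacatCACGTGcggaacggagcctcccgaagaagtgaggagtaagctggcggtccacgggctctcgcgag
Cd63, chr10:128909095-128909394, plus strand: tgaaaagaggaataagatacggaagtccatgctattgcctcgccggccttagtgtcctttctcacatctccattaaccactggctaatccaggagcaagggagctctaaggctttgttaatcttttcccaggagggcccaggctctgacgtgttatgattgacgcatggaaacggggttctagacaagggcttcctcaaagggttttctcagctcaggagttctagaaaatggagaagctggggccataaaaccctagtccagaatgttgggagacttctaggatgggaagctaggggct
Lamp1 held 4 cores between 61 and 10 bases before its start, a number reached by 6 of 27025 genes (0.0222%). In Mcoln1 a core 71 bases before the start was followed by the longer element at 46 to 39 bases. The longer element lay across the start in Atp6v0d1, from 132 bases before it in Atp6v1a and from the third base after it in Atp6v0e. The window of Cd63 held none of the 3 elements, which says only that these letters are not in that window. In the GENCODE annotation of the same assembly the RefSeq start lies inside the span of the gene for 4 of the windows shown, by 62 bases in Mcoln1, 446 in Atp6v1a, 8356 in Cd63 and 13165 in Atp6v0e. Between the libraries, genes with the 8-letter element had a median close to that of all genes. Over 85 such genes with at least 50 CPM the median log2 ratio of FGR over Ctrl was -0.06, and over all 3512 genes it was -0.07.

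Hydrolases made up the largest summed level of the 4 larger groups and had the lowest ratio of sums between the libraries. Their sum was 5609 CPM in the Ctrl library and 5126 in the FGR library, a ratio of 0.914 with a 95% interval of 0.909 to 0.919. Intervals here and below are exact and cover counting error only. Legumain (Lgmn, ENSMUSG00000021190, chromosome 12, 102394084 to 102439813), an asparagine-specific protease that also matures cathepsins, gave 61.8% and 60.5% of that sum. Its level was 3469 CPM in the Ctrl library and 3103 in the FGR library, a ratio of 0.895 (0.888 to 0.901). On this scale a transcript counts once whatever its length, and Lgmn ranked 22nd and 30th of all genes. By the median log2 ratio of single genes the hydrolases, at -0.055, were not the lowest group, since the pump genes stood at -0.061.

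Man2b1, the lysosomal α-mannosidase that trims N-linked glycans (ENSMUSG00000005142, chromosome 8, 85083270 to 85098282), stood at 536 CPM in the Ctrl library and 431 in the FGR library. Its ratio of 0.804 (0.789 to 0.818) was the lowest of the set. Hexa, a hydrolase of ganglioside breakdown, stood at 416 and 439.7 CPM, a ratio of 1.06. Acid ceramidase (Asah1) stood at 375 and 371 CPM and β-glucuronidase (Gusb) at 168 and 165 CPM, with ratios of 0.988 and 0.983 that turned above 1 under TMM scaling, described below. Tpp1, a tripeptidyl peptidase, stood at 304 and 288 CPM (0.947) and Ppt1, which removes palmitate from proteins, at 156 and 142 CPM (0.907). Acid lipase (Lipa), which frees cholesterol from its esters, stood at 94.8 and 96.0 CPM (1.01), and Naglu, a glucosaminidase of heparan sulfate breakdown, at 56.5 and 54.4 CPM (0.962). β-Galactosidase (Glb1) lay below 50 CPM, at 33.6 and 36.2. Its transcript overlaps Tmppe on the same strand, so counts of these genes may not be fully separable.

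The 3 luminal cofactors were each slightly lower in the FGR library. Prosaposin (Psap), the precursor of the saposins that present lipids to hydrolases, stood at 1506 and 1466 CPM (ratio 0.974, interval 0.964 to 0.984). Progranulin (Grn) stood at 961 and 884 CPM (0.92, 0.908 to 0.932). Npc2, which hands cholesterol to the membrane protein Npc1, stood at 607 and 587 CPM (0.967). Together they summed to 3074 and 2937 CPM.

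Membrane proteins had almost equal sums, 4748 CPM in the Ctrl library and 4765 in the FGR library, a ratio of 1.004 (0.998 to 1.01), with members on either side. Cd63, a tetraspanin of late endosomes, lysosomes and exosomes (ENSMUSG00000025351, chromosome 10, 128900989 to 128912822), stood at 383 CPM in the Ctrl library and 489 in the FGR library, a ratio of 1.28 (1.25 to 1.3) that was the highest of the set. Laptm4a, a transmembrane protein of late endosomes and lysosomes, stood at 357 and 391 CPM (1.09, 1.07 to 1.12). Laptm5, a lysosomal transmembrane protein of blood cells, was the most abundant of the membrane genes at 1918 and 1894 CPM (0.988, above 1 under TMM), and gave 40.4% and 39.8% of the sum. The coat glycoproteins Lamp1 and Lamp2 stood at 733 and 692 CPM (0.943) and at 566 and 526 CPM (0.929). Cd68, a heavily glycosylated protein of phagocyte lysosomes, stood at 447 and 435 CPM (0.974). Scarb2, the receptor that carries glucocerebrosidase to the lysosome, stood at 177 and 176 CPM (0.997, above 1 under TMM). The cholesterol exporter Npc1 stood at 148 and 145 CPM (0.982, above 1 under TMM), and Mcoln1, at 18.0 and 16.2 CPM, lay below 50.

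Proton pump genes had the lowest sum of the 4 larger groups, 1519.5 CPM in the Ctrl library and 1503 in the FGR library, a ratio of 0.989 (0.979 to 0.999). Atp6v0c, the proteolipid of the rotating membrane ring, gave 46.6% and 45.4% of it at 708 and 682 CPM (0.963). The small membrane subunit Atp6v0e stood at 204 and 218 CPM (1.06), and Atp6ap2 and Atp6ap1, accessory proteins of pump assembly, at 189.9 and 203 CPM (1.07) and at 149 and 154 CPM (1.03). Of the catalytic cytosolic domain, Atp6v1a stood at 73.4 and 70.0 CPM (0.954), Atp6v1b2 at 75.1 and 65.5 CPM (0.872) and Atp6v1h at 55.0 and 52.1 CPM (0.947). Atp6v0d1, which couples the domains, stood at 64.4 and 59.0 CPM (0.916). The accessory proteins and Atp6v0e were thus the members of the pump group above 1. Below 1 were the 3 members of the cytosolic domain, Atp6v0c and Atp6v0d1, and also 66.1% of all genes measured. Intervals reach 1 for Atp6v1a and Atp6v1h. Tfeb itself lay below 50 CPM, at 28.5 and 28.1.

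**Figure D1:**
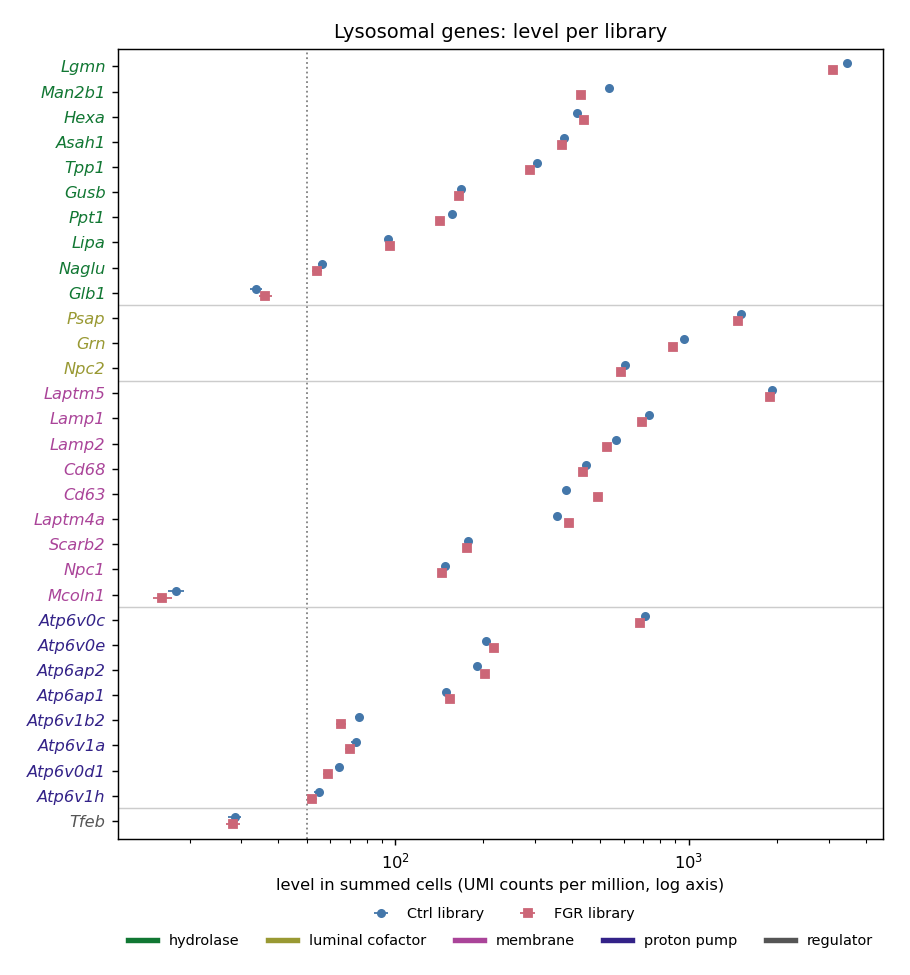
Level of each lysosomal gene in the summed cells of the Ctrl library (circles) and the FGR library (squares), in CPM on a log axis; bars are 95% counting intervals, gene names are coloured by role, and the dotted line is 50 CPM. The circle and square of a gene lie close together for nearly the whole set, with Cd63 and Man2b1 the most separated among genes right of the line.

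Read against all genes, the set stood near the background of the comparison. At least 50 CPM in a library was reached by 28 of the 31 genes and by 3512 of all genes. A gene was counted when its whole ratio interval lay past 1.5-fold, and 0 of 28 were, against 2.48% of all genes higher and 1.17% lower in the FGR library. Past 1.2-fold, Cd63 was the 1 gene higher and Man2b1 the 1 lower, against 5.52% higher and 7.92% lower among all genes. Ratios lay below 1 for 21 of 28 (75%) and for 66.1% of all genes. Median log2 ratios were -0.06 for the hydrolases, -0.05 for the cofactors, -0.02 for the membrane proteins (0.015 under TMM scaling, another way of setting the library totals) and -0.06 for the pump genes, beside -0.07 for all genes. The ratio of Cd63 lay just above the 95th percentile of all genes, 1.27, and that of Man2b1 above the 5th percentile, 0.767.

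**Figure D2:**
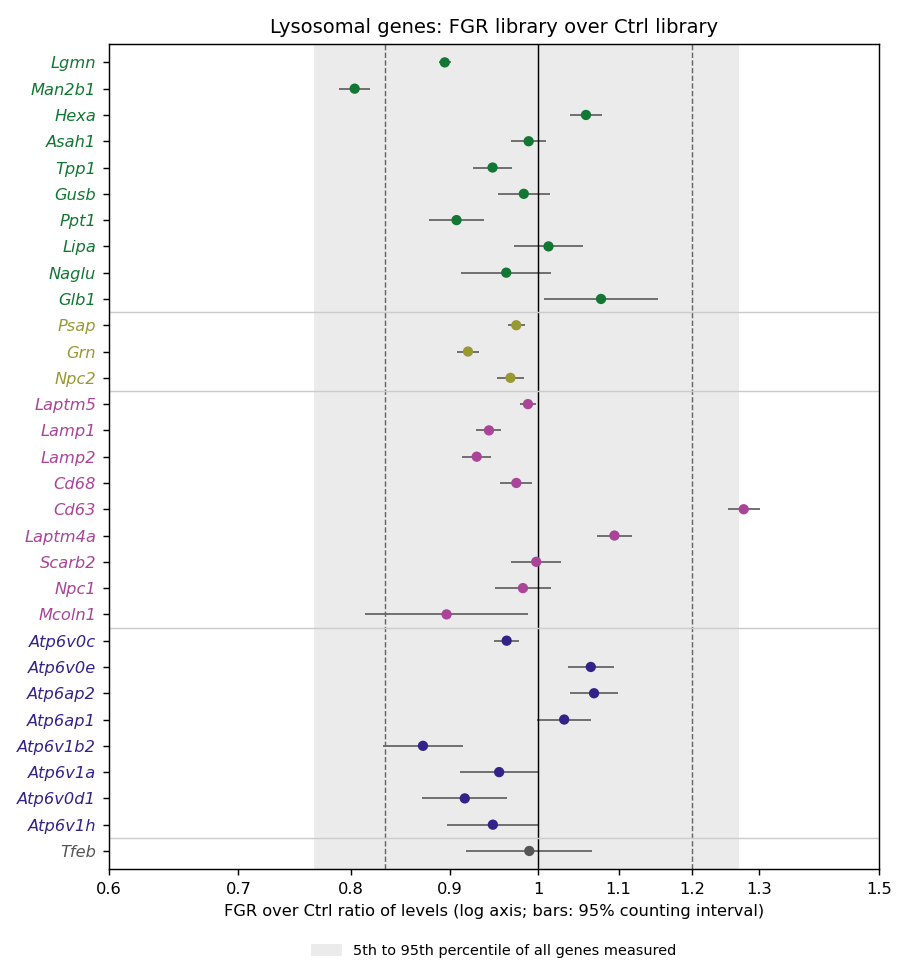
FGR over Ctrl ratio of each lysosomal gene's level, on a log axis, with 95% counting intervals; the shaded band spans the 5th to 95th percentile of 3512 genes, the dashed lines mark 1.2-fold and colours give the role as in the plot of levels. Only Cd63, at 1.28, lies right of the band, and Man2b1, at 0.804, lies inside it near its left edge.

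The ratio of Cd63 between the libraries stayed above 1.2 in the subsets of cells examined. In cells with at least 5 microglial UMIs and at most 2 UMIs of other cell types after thinning, the level was 368 CPM in the Ctrl library and 455 in the FGR library, a ratio of 1.24 (1.19 to 1.28). Barcodes with at most 2 microglial and at least 5 other-type UMIs numbered 15 and 43 and held 2 and 37 Cd63 UMIs, so those of the FGR library had 574 CPM. In 4 bands of cells of increasing immediate early UMIs the ratio of Cd63 was 1.41, 1.31, 1.21 and 1.27. For Man2b1 the same bands gave 0.819, 0.833, 0.935 (0.873 to 1.002) and 0.923. The values of the upper bands lay nearer to 1, with intervals that overlap those of the lower bands (0.777 to 0.892 in the second and 0.855 to 0.995 in the fourth). For Lgmn the 4 ratios lay between 0.89 and 0.93.

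Free RNA gives low counts in every droplet, so levels in cells were set beside those in barcodes of 10 to 100 UMIs. All 9 hydrolases with at least 50 CPM were higher in cells than in such barcodes in both libraries, as were 2289 of all 3512 genes at that level. Hydrolase medians were 1.5-fold in the Ctrl library and 1.42-fold in the FGR library, beside 1.19 and 1.13 for all genes. For Lipa the ratios were 1.90 and 1.74. Medians were 1.24 and 1.18 for the membrane proteins and 1.2 and 1.06 for the cofactors. Of 8 pump genes 3 were higher in cells in both libraries (Atp6v1a, Atp6v1b2 and Atp6ap2), with a median of 0.975 and 1.09 over the 8. Cd63 and Atp6v0c stood lower in cells than in free RNA, at 0.952 and 0.849 for Cd63 and 0.863 and 0.833 for Atp6v0c. The free RNA level of Cd63 was itself 403 CPM in the Ctrl library and 576 in the FGR library. With free RNA subtracted at 5% of the UMIs of cells, the log2 ratio of Cd63 between the libraries was 0.34, beside 0.35 without subtraction.

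Most cells held a transcript of the abundant members. With each cell thinned to 1500 UMIs, Lgmn was found in 98.9% of Ctrl cells and 98.0% of FGR cells, Laptm5 in 93.5% and 92.9%, Psap in 87.1% and 85.8% and Atp6v0c in 61.4% and 60.5%. Cd63 was found in 34.5% and 39.7% and Tfeb in 4.08% and 4.03%. With all UMIs of a cell the shares were 99.9% and 99.5% for Lgmn, 99.6% and 99.2% for Laptm5, 63.1% and 69.4% for Cd63 and 13% and 13.5% for Tfeb. In the 15 and 43 barcodes with at most 2 microglial UMIs, whose median depth was 5096 and 5351 UMIs, the thinned share was 6.67% and 9.30% for Laptm5. For Lgmn it was 6.67% and 30.2% there. The 15 Ctrl barcodes hold 1 UMI of each of these genes.

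Cd63 varied most between cells of the set. Its Fano factor, the variance of the thinned counts over their mean, was 1.81 in the Ctrl library and 1.97 in the FGR library, above 98.3% and 97.9% of all genes with at least 50 CPM. Atp6v0c followed with 1.28 and 1.3 and Lgmn with 1.26 and 1.32, while the medians of the hydrolases and pump genes, 1.04 to 1.07, were near the 1.04 and 1.05 of all genes. At least 5 Cd63 UMIs were held by 108 Ctrl cells (1.01%) and 134 FGR cells (1.55%), where a Poisson spread around the library mean would give 2.85 and 6.16 cells. The median of microglial marker UMIs in these cells was 22 and 16, beside 31 and 30 in cells with no Cd63 UMI, and 6 cells of each library had 3 or more UMIs of other cell types.

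Activated cells were taken as those with at least 2 UMIs of Lgals3, Lpl, Spp1, Itgax, Gpnmb, Cst7 and Igf1, genes of activated or phagocytic microglia. They exceeded other cells in Cd63 by a factor among the largest of all genes measured outside that list. These activated cells numbered 178 in the Ctrl library (1.67%, exact Clopper-Pearson interval 1.43 to 1.93%) and 176 in the FGR library (2.04%, 1.75 to 2.36%). The class is a range cut from a sum, with 118 Ctrl and 107 FGR cells at 2 UMIs and 787 and 606 just below it at 1 UMI. Lpl, a lipoprotein lipase, was the most abundant gene of the 7 within it, at 1075 and 1049 CPM. It was found in 82.0% and 72.7% of these cells, so the class rests largely on Lpl. The activated cells were deeper, with medians of 5489.5 UMIs against 4641 in other Ctrl cells and 5732.5 against 4904.5 in other FGR cells. They held fewer microglial marker UMIs, with medians of 23 against 31 and 16 against 29, and means of 0.685 and 1.31 UMIs of other cell types, beside 0.950 and 0.943 in other cells. Their medians of interferon, mitotic and myelin UMIs were 0. Most cells of either library held 0 UMIs of each of these lists, so these medians cannot show whether the classes overlap. Their medians of immediate early UMIs were 42 and 47.5 against 43 and 56. The part of these differences in the ratios below was not tested.

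In the Ctrl library Cd63 had 1303 CPM in activated cells and 351 in the other cells, which is 3.71-fold (3.32 to 4.14). In the FGR library the levels were 1856 and 428 CPM, which is 4.34-fold (3.95 to 4.76). By the lower of the ratios of the 2 libraries Cd63 (log2 1.893) ranked 1st of 3507 genes, just ahead of the protease inhibitor gene Cstb (1.887) and the lysozyme gene Lyz2 (1.793). Over 8 ways of taking the activated cells its ratio lay between 2.27 and 5.64 and its rank between 1 and 3. The list itself was changed in 1 of these ways, by leaving out Lgals3, and Lpl was kept in all 8. In the microglial cells alone the ratios were 3.76 and 4.41, and without the 5% of cells with the most UMIs 3.60 and 4.29. Activated cells gave 5.92% of the thinned Cd63 UMIs of the Ctrl library and 8.30% of those of the FGR library. Of cells with at least 5 Cd63 UMIs, 20.4% and 32.1% were activated. The FGR over Ctrl ratio of Cd63 was 1.42 (1.24 to 1.64) among activated cells and 1.22 (1.17 to 1.27) among the others. For Man2b1 the same ratios were 0.623 (0.474 to 0.816) and 0.829 (0.802 to 0.858), and for Lgmn 0.776 (0.705 to 0.854) and 0.904 (0.893 to 0.916). Among activated cells these ratios moved with how the cells were taken, over the 8 ways from 1.23 to 1.43 for Cd63, 0.595 to 0.830 for Man2b1 and 0.722 to 0.891 for Lgmn. The lowest for Cd63, 1.23, came without Lgals3 in the list and is near that of the other cells. Whether activated and other cells differ in these ratios was not tested.

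The other members are given by role. A gene was counted here when its ratio, without regard to the interval, was past the fold in both libraries. All 3 luminal cofactors were past 1.2-fold higher in activated cells, Npc2 at 1.41 in each, Grn at 1.41 and 1.36 and Psap at 1.28 and 1.32, in the order Ctrl and FGR. Besides Cd63, the membrane proteins Cd68 (1.66 and 1.85) and Lamp1 (1.5 and 1.42) were past it. Of the pump genes Atp6v1a (1.84 and 2.15), Atp6v0c (1.71 and 1.57) and Atp6v0e (1.24 and 1.49) were past it, the last with an interval from 0.959 in the Ctrl library. Of 9 hydrolases only Lipa (1.70 and 1.82) and Gusb (1.45 and 1.21) were past it, Gusb with an interval from 0.907 in the FGR library. In all, 11 of 28 genes were past 1.2-fold in both libraries and 0 were lower by that much in both, against 9.69% of 3507 genes higher and 14.7% lower. Past 1.5-fold were 5 of 28 (Cd63, Cd68, Lipa, Atp6v1a and Atp6v0c), against 2.65% higher and 2.68% lower. Over the 8 ways of taking the cells the count past 1.2-fold was 9 to 13 and that past 1.5-fold 1 to 7. The lowest count past 1.5-fold, Cd63 alone, came with at least 1 UMI of the activated list. Cd63, Cd68, Lamp1, Npc2, Lipa, Atp6v0c and Atp6v1a were past 1.2-fold under all 8.

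Lgmn and Laptm5, the most abundant members, were not past 1.2-fold higher in activated cells. Lgmn stood at 3689 CPM in activated Ctrl cells against 3499 in other cells, and at 2864 against 3165 CPM in the FGR library, ratios of 1.05 (0.989 to 1.12) and 0.905 (0.841 to 0.972). Laptm5 stood at 1974 against 1926 CPM and at 1470 against 1924 CPM, ratios of 1.02 (0.938 to 1.12) and 0.764 (0.689 to 0.845). Man2b1 had 1.04 and 0.779 and Scarb2 1.33 and 0.755, while Hexa, Lamp2 and Laptm4a lay between 0.986 and 1.11. Median log2 ratios were 0.12 and 0.18 for the hydrolases, 0.49 and 0.45 for the cofactors, 0.27 and 0.07 for the membrane proteins and 0.25 and 0.60 for the pump genes, beside -0.05 and -0.07 for all genes. With at least 3 UMIs asked of a cell (60 and 69 cells), the FGR medians of the hydrolases and membrane proteins were -0.14 and -0.10.

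**Figure D3:**
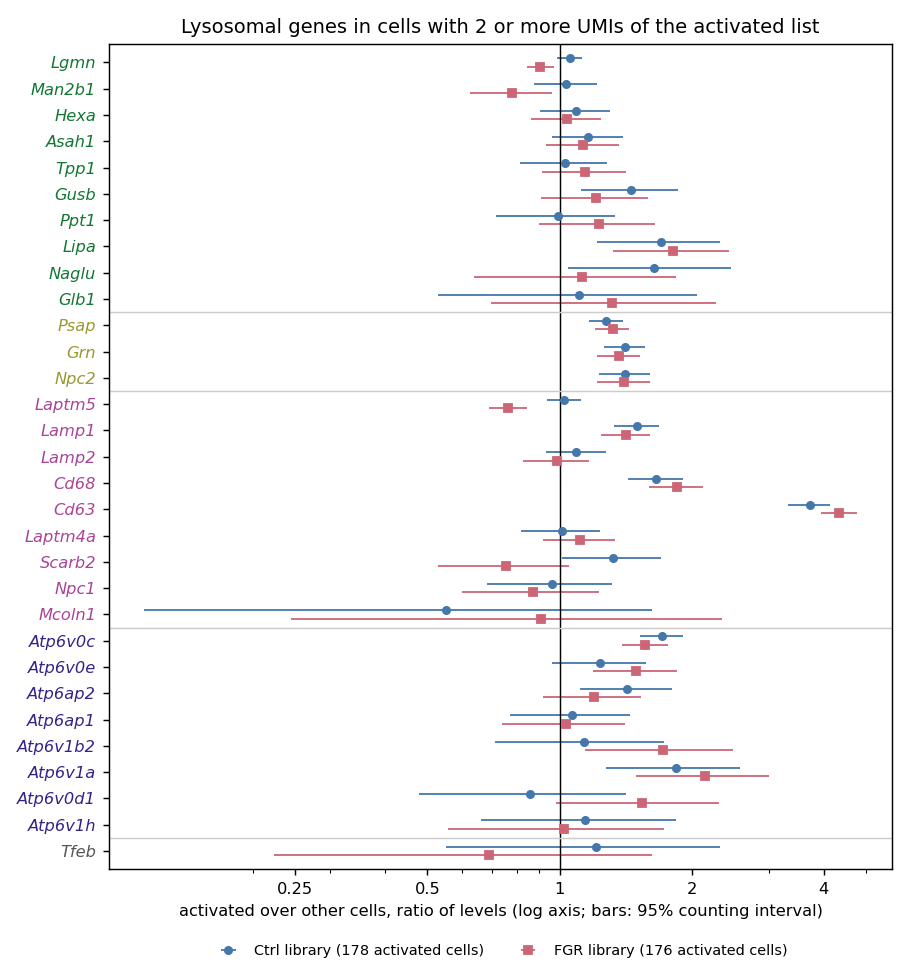
Ratio of each lysosomal gene's level in activated cells (at least 2 UMIs of the activated list) over all other cells of the same library, for Ctrl (circles) and FGR (squares), on a log axis with 95% counting intervals. Cd63 lies at 3.71 and 4.34, the cofactors, Cd68, Lamp1, Atp6v0c, Atp6v1a and Lipa lie right of 1 in both libraries, and Lgmn and Laptm5 lie left of 1 in the FGR library.

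Graded by activated UMIs per cell, some members climbed step by step. Cd63 stood at 329, 620, 960 and 1978 CPM in Ctrl cells with 0, 1, 2 and at least 3 such UMIs, and at 399.6, 791, 1452 and 2483 CPM in FGR cells. Cd68 stood at 433, 524, 667 and 856 CPM and at 407, 559, 741 and 821 CPM. Atp6v0c went from 686 to 1356 CPM in the Ctrl library and from 659.5 to 1179 in the FGR library. Of the 28 members with at least 50 CPM, 7 were higher at each of the 3 steps in both libraries, namely Psap, Grn, Npc2, Lamp1, Cd63, Cd68 and Atp6v0c. This compares with 2.62% of 3511 genes at that level. None was lower at each step in both, against 4.04%. The 7 genes are the 3 cofactors, 3 membrane proteins and the pump proteolipid, with 0 of 9 hydrolases at that level. Genes with few UMIs can miss a step by counting error, and neither roles nor all genes were matched for level. The hydrolase Lipa stood at 87.8, 118, 136 and 189 CPM in the Ctrl library and at 94.0, 120, 187 and 155 in the FGR library. It missed only the last FGR step, on 30 and 16 UMIs with overlapping intervals. Of the 7 genes, Lamp1 alone had a CACGTG core in its promoter window, which says nothing of sequence outside the windows. The RefSeq start used for Cd63 lies 8356 bases inside the GENCODE span of the gene. For Psap, Grn, Npc2, Cd68 and Atp6v0c the place of the start in that span was not examined. The upper steps rest on few cells, 118 and 60 in the Ctrl library and 107 and 69 in the FGR library.

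**Figure D4:**
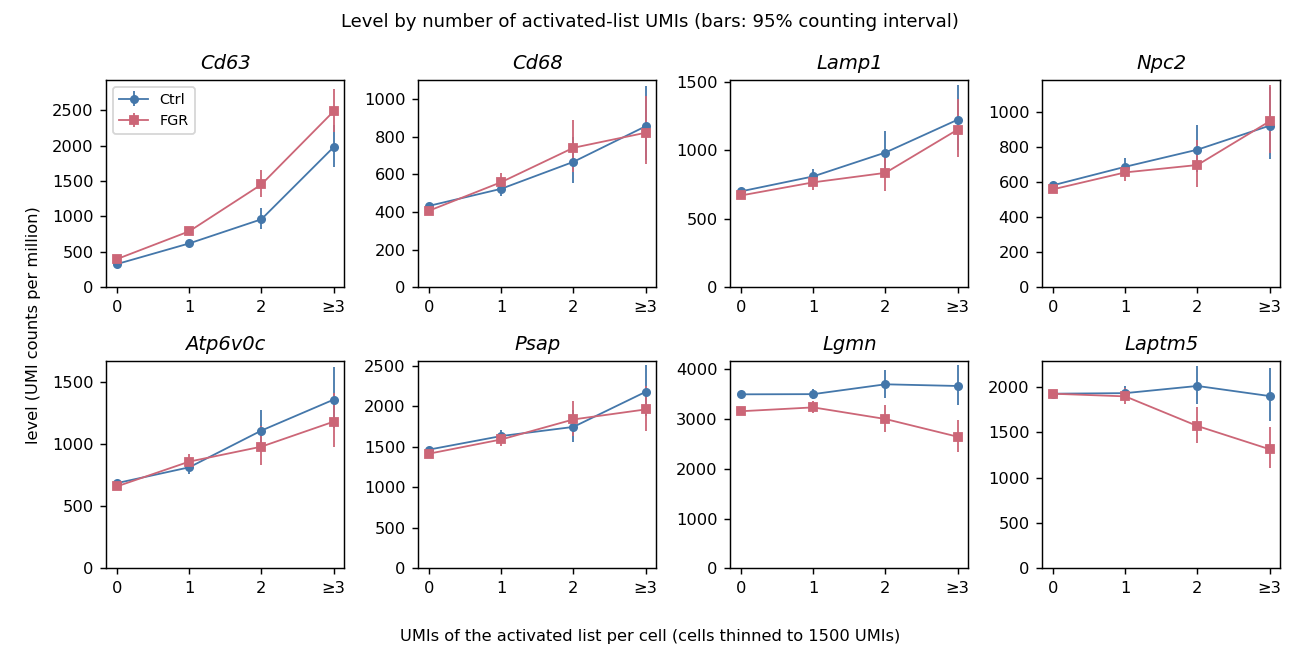
Level in CPM (each axis from 0) of 8 lysosomal genes in cells grouped by their UMIs of the activated list, for the Ctrl (circles) and FGR (squares) libraries, with 95% counting intervals. Cd63 climbs from 329 to 1978 CPM in the Ctrl library and from 399.6 to 2483 in the FGR library, Cd68, Lamp1, Npc2, Atp6v0c and Psap climb by less, and Lgmn and Laptm5 do not climb at every step.

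Other lysosomal genes, listed by pathway and not by level, differed in the same cells to unequal degrees. Of 10 cathepsins, the main lysosomal proteases, 6 were past 1.2-fold higher in activated cells of both libraries and 0 lower. Among all 3507 genes 9.69% were higher and 14.7% lower by that rule, shares that also stand beside the counts of the lists that follow. Ctsb stood at 3240 against 1337 CPM in the Ctrl library and at 3189 against 1357 in the FGR library (2.42 and 2.35), Ctsz had 2.10 and 2.38 and Ctsd 1.69 and 1.59, while Ctss had 0.979 and 0.921. Of 16 genes listed as other hydrolases 3 were higher (Creg1, Dnase2a and Gaa) and 3 lower (Arsb, Ids and Naaa). That list also holds Creg1 and Gm2a, which are not known hydrolases. Gaa, which degrades glycogen, had 2.28 and 2.24, and Arsb, a sulfatase, 0.729 and 0.673. Of 9 other membrane proteins 3 were higher (Ctns, Mfsd1 and Slc11a1) and 2 lower (Cd164 and Lmbrd1), and Cd164, a sialomucin, had 0.640 and 0.579. Of 9 other pump genes 2 were higher (Atp6v0a1 and Atp6v1d) and 1 lower (Atp6v0a2), of 11 regulators 1 was higher (Lamtor5), and of 3 genes of the mannose 6-phosphate route, which delivers hydrolases to lysosomes, 1 was lower (Sort1).

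Between the libraries the same lists had few genes past 1.2-fold. Of the 11 regulators with at least 50 CPM, of 16 listed, Tfe3 and Flcn were lower in the FGR library past 1.2-fold and 0 were higher, against 7.92% lower and 5.52% higher among all genes. Ratios lay below 1 for 9 of the 11, and for 66.1% of all genes. Tfe3, a relative of Tfeb that binds the same element, stood at 197 CPM in the Ctrl library and 136 in the FGR library, a ratio of 0.690 (0.668 to 0.712). Flcn, folliculin, which relays amino acid supply to the control of Tfeb and Tfe3, stood at 89.1 and 59.1 CPM, a ratio of 0.663 (0.632 to 0.695). Their ratios stayed below 1 in every immediate early band, from 0.593 to 0.717 for Tfe3 and from 0.552 to 0.685 for Flcn. Rragc, a GTPase of the same amino acid pathway, had 0.820, and the scaffold genes Lamtor1 and Lamtor4 had 0.871 and 1.14. The median log2 ratio of the regulators was -0.20.

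Of 10 cathepsins 2 were higher past 1.2-fold (Ctsh at 1.28 and Ctsz at 1.22) and 0 lower, against the same 5.52% and 7.92% of all genes, with a median log2 ratio of 0.10. Ctsc had 1.22 with an interval from 1.19, Ctsd 1.11, Ctss 1.12 and Ctsb 1.03. Of the 16 genes with at least 50 CPM in the list of other hydrolases, of 28 listed, 2 were lower. These were Neu1, a sialidase, and Dnase2a, which degrades DNA, at 0.758 and 0.782. Gaa had 1.22 and Arsb 0.840. None of 9 other membrane proteins (of 23 listed), 9 other pump genes (of 12) or 3 genes of the mannose 6-phosphate route (of 10) was past 1.2-fold. Ctns, the cystine exporter, had 0.843, the metal transporter Slc11a1 1.17, Lmbrd1 1.13, Cd164 0.963, Slc29a3 1.02 and Slc36a1 0.918. Atp6v0a2 had 0.851, Tcirg1 1.13, Atp6v1g1 1.12, Atp6v0b 0.933 and Atp6v1f 1.05, and M6pr, Sort1 and Nagpa had 1.17, 1.13 and 1.04, a median log2 ratio of 0.18. Medians were -0.08 for the other hydrolases and -0.05 for both the other membrane proteins and the other pump genes.

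Along immediate early UMIs the hydrolase, membrane and cofactor sums fell, while the pump sum rose with its leading gene Atp6v0c. The cells of both libraries were pooled and divided into 4 bands of about equal size at 31, 48 and 69 such UMIs after thinning, with 3141, 2975, 2810 and 1761 Ctrl cells and 1646, 1729, 2082 and 3161 FGR cells. These are ranges of a sum, with 20% and 16.7% of cells within 2 UMIs of an edge. Median activated and myelin UMIs were 0 in each band, as most cells of either library held 0 UMIs of these lists. From the lowest to the highest band the hydrolase sum went from 5760 to 5258 CPM in the Ctrl library and from 5410 to 4957 in the FGR library. Membrane proteins went from 4881 to 4357 CPM and from 5073 to 4439.5, and cofactors from 3164 to 2708 and from 3017 to 2689. Pump genes went from 1410 to 1604 CPM and from 1435 to 1520, higher in each next band in both libraries. Atp6v0c, at 607 to 829 CPM and 618 to 730, rose by more than that sum. The sum of the other pump genes was therefore lower in the highest band than in the lowest in both libraries, like the other groups.

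Single members differed in size and direction. Man2b1 stood at 614, 559, 471 and 414 CPM in the 4 Ctrl bands and at 503, 466, 440 and 382 in the FGR bands. Cd63 stood at 382, 382, 367 and 314 CPM and at 539, 499, 442 and 401. Atp6v0c stood at 607, 701, 735 and 829 CPM and at 618, 636, 695 and 730. As highest over lowest band, Man2b1 had 0.673 and 0.759 and Cd63 0.822 and 0.742, the 2 of 28 genes past 1.2-fold lower in both libraries, and 0 were higher, against 10.4% of 3494 genes lower and 8.7% higher. Grn had 0.775 and 0.870, Laptm5 0.861 and 0.871, Lamp1 0.837 and 0.861 and Atp6v0c 1.37 and 1.18. Lgmn, at 0.955 and 0.941, and Asah1, at 0.972 and 0.976, were nearly level. Without Atp6v0c the pump genes showed no common direction, with ratios from 0.834 to 1.03 in the Ctrl library and 0.882 to 1.18 in the FGR library. Median ratios were 0.918 and 0.911 for the hydrolases, 0.853 and 0.866 for the membrane proteins and 0.9996 and 0.959 for the pump genes, beside 0.985 and 0.968 for all genes.

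**Figure D5:**
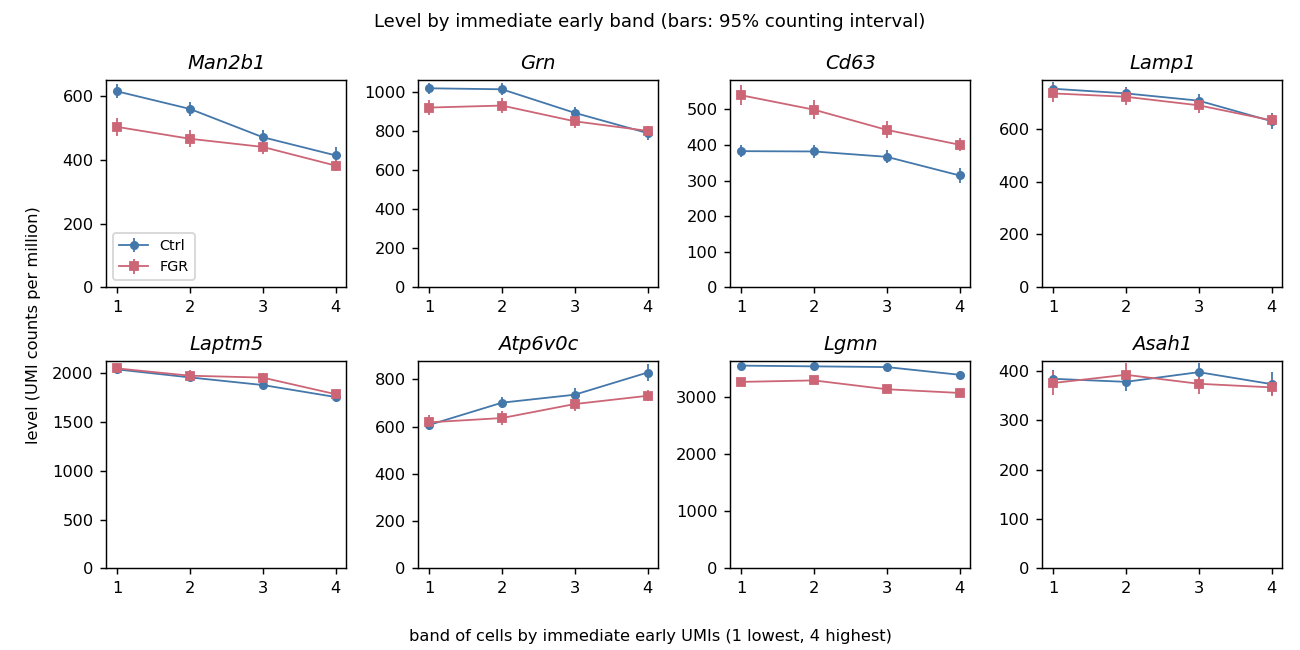
Level in CPM (each axis from 0) of 8 lysosomal genes in bands of cells by immediate early UMIs, 1 lowest and 4 highest, for the Ctrl (circles) and FGR (squares) libraries, with 95% counting intervals. Man2b1 and Cd63 descend in both libraries, Atp6v0c ascends, and Lgmn and Asah1 are nearly level.

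Few cells carried interferon response genes, and some members differed in them. Cells with at least 3 UMIs of 11 such genes numbered 46 in the Ctrl library and 43 in the FGR library, with 55 and 40 just below at 2 UMIs. Of 28 members 5 were past 1.2-fold higher in them than in other cells of both libraries (Cd63, Grn, Laptm4a, Lipa and Tpp1) and 2 were lower (Lamp1 and Man2b1), against 9.22% of 3428 genes higher and 17.7% lower. Grn had 1.29 (1.03 to 1.6) and 1.37 (1.08 to 1.72), in the order Ctrl and FGR, and Lamp1 0.709 (0.494 to 0.987) and 0.635 (0.422 to 0.918). For the other 5 the interval included 1 in at least 1 library. Lipa had 1.75 and 1.92 from 11 and 12 UMIs, Laptm4a 1.36 and 1.53, Cd63 1.27 and 1.22, Tpp1 1.21 and 1.36 and Man2b1 0.575 and 0.746. In cells with at least 3 myelin UMIs, 244 and 45 with 271 and 83 just below, 0 of 28 members were past 1.2-fold higher in both libraries and 2 were lower, against 3.15% of 3460 genes higher and 6.45% lower. The 2 were Atp6ap1, at 0.794 and 0.788, and Atp6v0e, at 0.830 and 0.748, with intervals that include 1 in both libraries. Cd68 had 1.06 and 1.05 in these cells.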

How the data were processed

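Per the file headers, the matrices the authors deposited came from Cell Ranger 4 and hold unnormalized UMI counts for each gene in each barcode. The submitters' processing notes name Cell Ranger 3.0, Seurat 5.0 and mm10, and no source used here gives the annotation or says whether counting used strand. Hexa, Ppt1, Grn, Lamp1, Npc1, Atp6v1b2 and Atp6v1h overlap a gene on the other strand. Counts of 38 symbols with more than 1 gene ID, none of them a member, were summed. Doublets were not called, and 1 alternative dropped the 5% of cells with the most UMIs. Counts were summed per library and divided by its cell UMIs, 53560293 (Ctrl) and 45441515 (FGR). Levels have exact Poisson, ratios exact conditional and shares exact Clopper-Pearson intervals at 95%, and the interval code was tested on simulated data. Classes of cells were taken after thinning each cell to 1500 UMIs with a fixed seed. The text names all members and, of each further pathway list, up to 3 genes of at least 50 CPM with the largest absolute log2 ratio and up to 3 with the highest Ctrl level. Pathway genes past the fold in activated cells were named after their values were seen. Some genes this rule selects are not reported here. Members and lists were chosen with earlier results of these data known. Gene positions come from GENCODE M21 (GRCm38). Python 3.11.15, numpy 2.4.6, scipy 1.17.1, pandas 2.3.3 and matplotlib 3.10.9 were used.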

Additional observations from a re-analysis of the deposited data

How the results depend on the processing

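Alternatives covered the UMI minimum, the mitochondrial limit, thinning, the scaling, microglial cells alone, the deepest cells, free RNA, immediate early strata, the level minimum and, for activated cells, the cut, the depth, the list and the seed, the last chosen after seeing the data. The count past 1.5-fold was 0 throughout and 2 at a fold of 1.2. With TMM scaling (a factor of 0.975) the median log2 ratio became -0.018 for the hydrolases and 0.015 for the membrane proteins, and with immediate early strata matched it was 0.013 for the membrane proteins, so the sign of that median is not settled. Under TMM the median of all genes was -0.03, and Gusb, Asah1, Npc1, Laptm5, Scarb2 and Tfeb turned above 1. The other 83 group values were counted as unchanged. For a median this meant a move of at most the median half-width of the single-gene counting intervals, not the counting error of the median itself. Among these 83, the FGR medians of hydrolases and membrane proteins in activated cells turned negative with at least 3 UMIs asked. Cd63 stayed between 0.31 and 0.40 on the log2 scale and Man2b1 between -0.32 and -0.25. No paired analysis was possible because each group is 1 library. Depth limits Glb1, Mcoln1 and Tfeb, which lie below 50 CPM, and every ratio within the 178 and 176 activated cells.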

Other observations

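As a set the 31 lysosomal genes gave 1.498% of the UMIs of Ctrl cells and 1.44% of those of FGR cells.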
